A study of Mus musculus with 8 samples.

Results

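Replication-dependent histone genes encode the core histones H2A, H2B, H3 and H4 and the linker histone H1 that package newly made DNA. They were taken as the protein-coding genes of the mouse mm10 assembly whose symbol begins with Hist1h, Hist2h, Hist3h or Hist4h, and 67 of 21938 protein-coding genes met this rule. By class they were 18 H2A, 18 H2B, 13 H4, 12 H3 and 6 H1 genes. By cluster, 54 lay in Hist1 on chromosome 13, 10 in Hist2 on chromosome 3, 2 in Hist3 on chromosome 11 and 1, Hist4h4, on chromosome 6.

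These genes are short, mostly lack introns, and give mRNAs that end in a stem-loop bound by SLBP in place of a poly(A) tail. Their transcription is tied to DNA synthesis through NPAT, a substrate of cyclin E and CDK2, in nuclear bodies that form at the clusters. Few cells divide in the uninjured adult spinal cord, while glia begin to proliferate in the days after a contusion; SOX9, an HMG-box transcription factor, is found there mainly in astrocytes and ependymal cells.

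SOX9 CUT&Tag, in which an antibody directs the transposase Tn5 to cut and tag DNA near a protein, was done on sorted nuclei from spinal cord segments of adult wild-type C57BL/6 mice. The paper's methods do not say whether these nuclei were selected by NEUN and SOX10, the stains it used to deplete neurons and oligodendroglia. Cords were uninjured or taken 1 day after contusion (1 d.p.i.), and each condition had a SOX9 library from a male (M) mouse and another from a female (F) mouse. For each of these 4 libraries a control without the SOX9 antibody (secondary antibody only) came from the same nuclei sample, giving 8 libraries in 4 groups of 2. The SOX9 libraries held 1891276 (uninjured M), 7216730 (uninjured F), 2529356 (1 d.p.i. M) and 2385009 (1 d.p.i. F) fragments, against 22752, 46846, 52950 and 10906 in their controls.

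Coverage of a gene's window, its body with 1 kb on each side, was divided by the mean coverage of the library over the genome, so that 1 is the genome average. Histone genes stood above that average in every SOX9 library. The median window level over the 67 genes was 5.87 in uninjured M, 9.69 in uninjured F, 7.00 in 1 d.p.i. M and 6.43 in 1 d.p.i. F, while the median over all 21938 genes was 1.5, 1.72, 1.59 and 1.58. Gene bodies of histone genes are short (median 539 bp, against 17425 bp over all genes), so the windows hold mostly promoter. Within 1 kb of the start site alone, the histone median was 7.28, 12.3, 8.54 and 7.87, and the median of all genes 2.77, 4.64, 3.58 and 3.24. On that scale the histone genes were 2.63, 2.65, 2.38 and 2.43 times the median gene. By mean start-site level over the 4 SOX9 libraries, 61 of the 67 ranked above the median gene, and 15 were among the highest 10% of all genes.

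**Figure D1:**
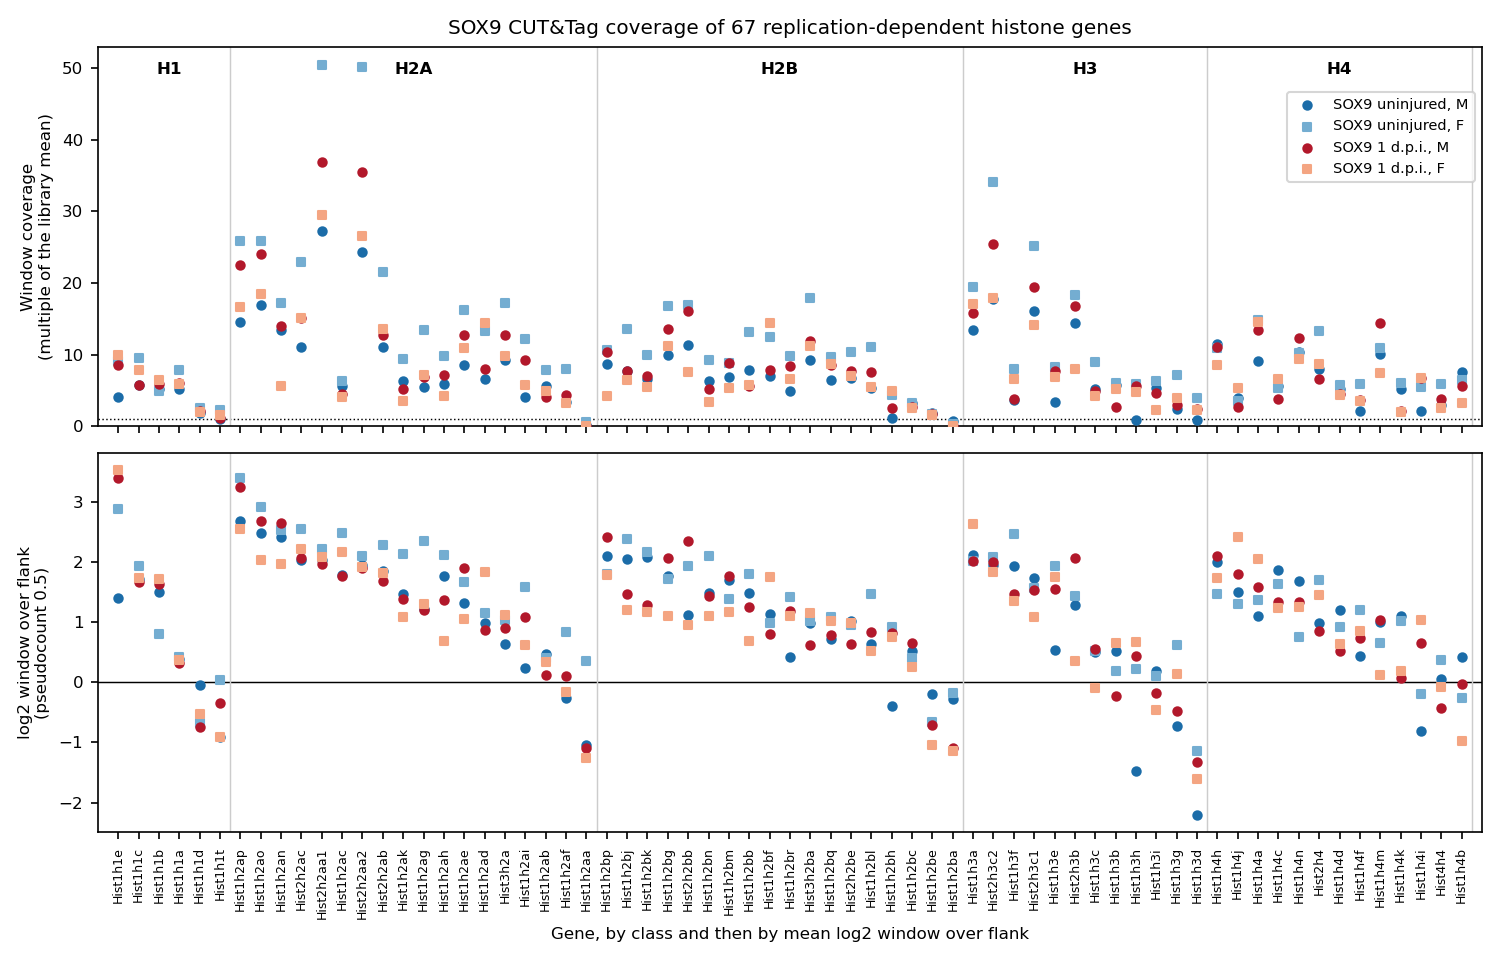
Window coverage of each of the 67 histone genes in the 4 SOX9 libraries (upper panel, multiple of the library mean, dotted line at 1) and its log2 ratio to the flank (lower panel, pseudocount 0.5, line at 0), with genes grouped by class on the x axis. The Hist2 genes Hist2h2aa1 and Hist2h2aa2 reach 50.5 and 50.2 in uninjured F, and Hist1h2aa and Hist1h2ba lie near 0.

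The secondary-only controls were also above the genome average over the histone genes. Overlapping windows merged to 199386 bp, 0.00732% of the genome, and each base of them was counted once. Over this stretch the 4 SOX9 libraries had a level of 4.96 (uninjured M), 7.90 (uninjured F), 6.13 (1 d.p.i. M) and 5.37 (1 d.p.i. F). Their controls had 7.05, from 13 fragments, with a 95% Poisson interval of 3.75 to 12, then 5.24 (17 fragments, 3.05 to 8.40), 7.32 (26 fragments, 4.78 to 10.7) and 5.38 (5 fragments, 1.75 to 12.6). SOX9 over control was 0.704 in uninjured M, 1.51 in uninjured F, 0.838 in 1 d.p.i. M and 0.998 in 1 d.p.i. F, and in each of the 4 samples the SOX9 level lay inside the control's interval. At this depth the counts do not separate SOX9 libraries from controls over these genes. Intervals cover counting error only, and some control fragments matched fragments of SOX9 libraries at both ends. Of those overlapping no other control fragment, 3 of 13 (uninjured M), 11 of 17 (uninjured F), 7 of 21 (1 d.p.i. M) and 1 of 5 (1 d.p.i. F) matched their own sample's SOX9 library. The SOX9 library of another sample matched more in uninjured M (6), 1 d.p.i. M (8) and 1 d.p.i. F (4).

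The start sites of other coding genes showed how far this was shared. Counting each base once, the level within 1 kb of histone start sites was 1.82, 1.71, 1.69 and 1.76 times that of all other coding genes in the SOX9 libraries (uninjured M and F, then 1 d.p.i. M and F). In the controls the same ratio was 1.55, 1.3, 2.1 and 1.33, from 10, 14, 23 and 4 fragments at histone start sites. Each library came from bulk nuclei, so a change in the cell types present and a change within them cannot be told apart for any value here.

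Against their surroundings, most histone genes formed local maxima. The log2 ratio of window to the 5 kb on each side (0.5 added to both) was fitted in limma over the 4 SOX9 libraries for genes with at least 20 fragment starts in the window, 18768 genes and 65 of the 67 histone genes. Of the 65, 48 were above their flanks at an adjusted p under 0.05, while 27.9% of all genes tested were, and the median log2 ratio was 1.28 against 0.19 over all genes tested. Another 4 histone genes lay below their flanks (10.8% of all genes tested did). The Hist1h2ba and Hist1h2aa windows had too few fragments to be tested, 4 each over the 4 libraries.

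Of the 67 flanks, 65 overlapped the window of another histone gene and 66 that of any other coding gene, and the part outside all such windows had a median of 5580 of 10000 bp (7799.5 bp over all genes). With the flank limited to that part, 65 of 65 histone genes were above it, when 29.9% of 16546 genes were, and the median log2 ratio was 2.1 against 0.32. The 4 genes below their flanks, Hist1h3d, Hist1h2be, Hist1h1t and Hist1h1d, were all above the limited flank. With the window itself limited to 1 kb around the start site, 53 of 63 were above the flank, and 74.9% of 14026 genes were. The medians were 1.68 and 1.43. Genes entered this fit by the fragment starts within that narrower window, and the flank still held other genes' windows. With the flank limited as well, the medians were 2.42 for histone genes and 1.47 over all genes tested.

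**Figure D2:**
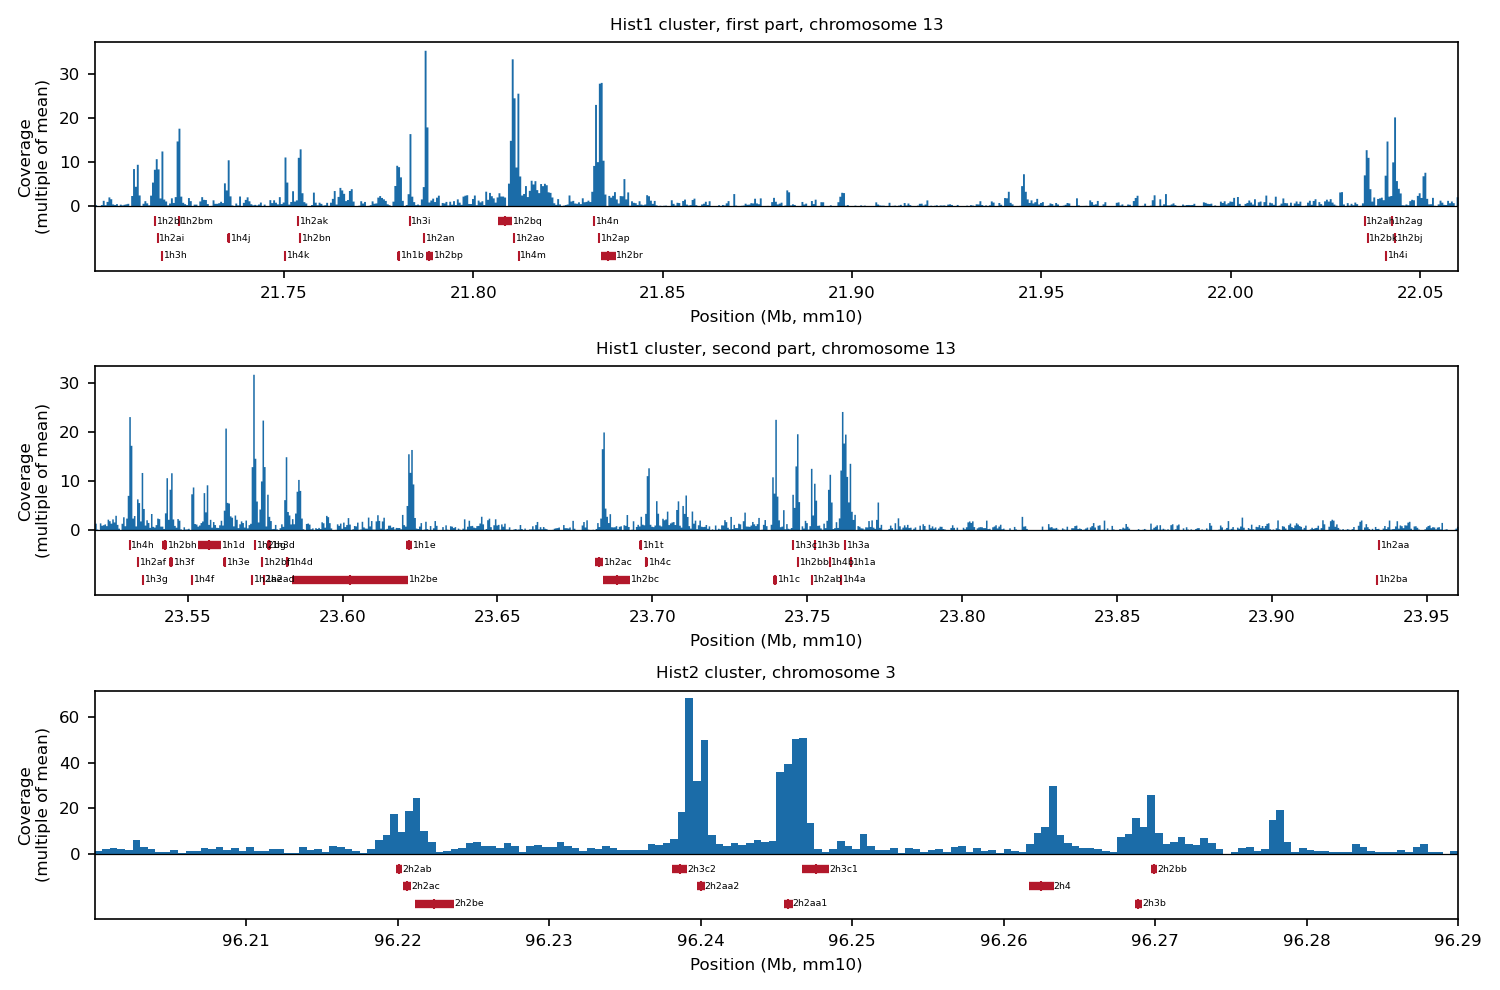
Mean coverage of the 4 SOX9 libraries in short bins (multiple of the library mean, y axis) along the Hist1 cluster, in its 2 parts on chromosome 13, and along the Hist2 cluster on chromosome 3 (x axis, Mb in mm10), with gene bodies as red bars and symbols without the Hist prefix. Coverage stands in narrow peaks at the genes and is low between them, and the pair 1h2aa and 1h2ba has no peak.

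Hist2, the smaller of the 2 large clusters, had the highest median level by whole windows, with repeated bases included. Around the start site the median of the 2 Hist3 genes was above that of Hist2 in uninjured F (24.7 against 21.2) and 1 d.p.i. M (18.3 against 17.1). The median window level of the 10 Hist2 genes was 12.9 in uninjured M, 22.2 in uninjured F, 16.4 in 1 d.p.i. M and 13.8 in 1 d.p.i. F, against 5.51, 8.94, 5.88 and 5.44 for the 54 Hist1 genes. Of the Hist2 genes 10 of 10 were above their flanks, beside 27.9% of all genes tested. Hist2h2aa1 (chr3:96245497-96246082), an H2A gene, had 27.3, 50.5, 36.9 and 29.5 in the same order, and its inverted copy Hist2h2aa2 (chr3:96239749-96240276) had 24.3, 50.2, 35.5 and 26.6. Beside them the H3 genes Hist2h3c2 and Hist2h3c1 reached 34.1 and 25.2 in uninjured F. These are copies too, and over bases that begin a 50-base sequence found once in the genome their levels there were 11.6 and 7.01, against 26.7 for Hist2h2aa1 and 19.4 for Hist2h2aa2. On such bases in 1 d.p.i. F, Hist2 genes ran from 3.07 (Hist2h3c1) to 18.7 (Hist2h2aa1), and the 2 Hist3 genes had 9.18 and 11.1. The rank of Hist2 is thus given for whole windows only. Both Hist3 genes, Hist3h2a (9.30, 17.3, 12.8 and 9.85) and Hist3h2ba (9.24, 17.9, 12 and 11.2), which encode an H2A and an H2B, were above their flanks (adjusted p of 0.000934 and 0.000796 in limma). Hist4h4, an H4 gene alone on chromosome 6, had 3.02, 5.88, 3.82 and 2.58 and a log2 ratio to its flank of -0.02 ± 0.18 (SE). Its ratio was 1.47 ± 0.27 against the flank outside other genes' windows.

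H2A and H2B genes, whose products pair in the nucleosome, lie mostly head to head and share a promoter. There were 12 such pairs (24 genes) with start sites 176 to 306 bp apart, 259.5 bp at the median. Coverage between the start sites was above 1 in every SOX9 library for 11 of the 12 pairs, with means over the 4 libraries from 9.51 to 37.9. The Hist1h2an and Hist1h2bp pair had a mean of 37.9 and the Hist1h2ao and Hist1h2bq pair 37.6, and the former was the highest of the pairs only in uninjured M, with 60.2 in uninjured M, 40.6 in uninjured F, 36.5 in 1 d.p.i. M and 14.2 in 1 d.p.i. F. These values spread by a factor of more than 4 and come from a stretch of 243 bp. By class, 15 of 17 H2A and 14 of 17 H2B genes tested were above their flanks, beside 27.9% of all genes tested. Their median log2 ratios were 1.52 and 1.17 (0.19 over all genes tested). Around the start site 15 of 17 H2A and 17 of 17 H2B genes were above, beside 74.9% of all genes tested. The medians there were 1.71 and 1.83 (1.43 over all genes tested).

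Within H2A, Hist1h2ap and its near-copy Hist1h2ao had the highest ratios to the 5-kb flank, while around the start site Hist1h2ac (3.07) and Hist1h2an (2.68) were above Hist1h2ap (2.39), and against the limited flank Hist1h2an (3.39) was next after Hist1h2ap (3.70). Hist1h2ap (chr13:21833026-21833507) had window levels of 14.5, 25.8, 22.5 and 16.7 against flanks of 1.83, 2.0, 1.93 and 2.43 (uninjured M and F, then 1 d.p.i. M and F), a log2 ratio of 2.97 ± 0.29 (SE, n = 4 libraries, limma adjusted p of 2.54e-07). Hist1h2ao (chr13:21810465-21810944) had 17.0, 25.9, 24.1 and 18.5 against 2.62, 2.99, 3.35 and 4.15, a log2 ratio of 2.53 ± 0.26 (adjusted p of 4.42e-07). All 4 libraries were above the flank for both genes. Of the H2B genes, Hist1h2bp (chr13:21787461-21789213) had the highest ratio to the 5-kb flank, with windows of 8.66, 10.7, 10.4 and 4.29 against flanks of 1.65, 2.72, 1.54 and 0.885 (log2 ratio of 2.02 ± 0.24, adjusted p of 1.56e-06). Hist1h2bf was above it against the limited flank (3.34 and 2.86), and Hist1h2bc around the start site (3.10 and 2.68).

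The pair Hist1h2ba and Hist1h2aa, which encodes the H2B and H2A variants made in the testis, had almost no coverage. Hist1h2ba (chr13:23933773-23934156) had 0.689 and 0.366 in uninjured M and F and 0 in both 1 d.p.i. libraries, and Hist1h2aa (chr13:23934462-23934851) had 0.212, 0.644, 0 and 0. These values lie below the genome average in all 4 SOX9 libraries, and the controls had 0 fragments in either window. Within 250 bases before the start both genes carry a CCAAT box, a TATA box and an octamer, and of the other pairs with both promoters matched only Hist1h2bg and Hist1h2ae have all 3 in both genes. The start sites of these pairs are 306 and 176 bp apart, so 1 site can be counted for both genes.

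H3 and H4 genes form the tetramer at the core of the nucleosome. Of 12 H3 genes 6 were above the flank, and of 13 H4 genes 10 were, beside 27.9% of all genes tested. The median log2 ratio was 0.83 in each class (0.19 over all genes tested). Around the start site 7 of 12 H3 and 11 of 13 H4 genes were above, beside 74.9% of all genes tested. Their medians there, 0.91 and 1.12, were below the 1.43 over all genes tested. Against the flank outside other genes' windows the class medians were 1.93 for H3, 1.97 for H4, 1.95 for H2B, 2.43 for H2A and 2.29 for H1, and differences between classes were not tested. Hist1h3a (chr13:23761853-23762386), the highest H3 gene by the ratio to either flank but not around the start site, had windows of 13.4, 19.4, 15.8 and 17.1 against flanks of 2.7, 4.42, 3.51 and 2.36 in uninjured M and F and 1 d.p.i. M and F (log2 ratio of 2.19 ± 0.24, adjusted p of 8.66e-07). The 4 libraries lay close together. Hist1h4h (chr13:23531050-23531519) had the highest ratio to the 5-kb flank of the H4 genes, and 4 others were above it against the limited flank, Hist1h4a highest at 3.47. It had 11.5, 10.9, 11.1 and 8.53 against 2.49, 3.62, 2.22 and 2.21 (log2 ratio of 1.83 ± 0.23, adjusted p of 3.52e-06). At the other end, Hist1h3d (chr13:23575763-23577011) had windows of 0.852, 3.92, 2.39 and 2.22 and flanks of 5.76, 9.30, 6.74 and 7.78, a log2 ratio of -1.57 ± 0.20 (adjusted p of 3.50e-06), which was 1.39 ± 0.30 (adjusted p of 0.00312) against the limited flank. A short distance from it lie 2 divergent H2A and H2B pairs whose promoters fall in its flank.

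The 6 H1 genes encode the linker histones that bind DNA between nucleosomes, and their levels were the lowest of the 5 classes in uninjured M (median 4.64). In uninjured F the H1 median of 6.37 lay above that of H4 (6.02), and in 1 d.p.i. M and F the H1 medians were 5.88 and 6.21. Hist1h1e (chr13:23620629-23622558) had windows of 4.08, 9.10, 8.53 and 9.92 against flanks of 1.24, 0.796, 0.355 and 0.406, a log2 ratio of 2.80 ± 0.29 (limma adjusted p of 4.45e-07). By the ratio to the 5-kb flank it was next after Hist1h2ap among all 67 genes. Several genes were above it against the limited flank (2.98, with Hist1h3a highest at 4.10) and around the start site (2.05, with Hist1h2bc at 3.10). Hist1h1c had a log2 ratio of 1.77 ± 0.22 (adjusted p of 3.71e-06), from windows of 5.77, 9.47, 5.82 and 7.89. Hist1h1b had 5.25, 4.87, 5.94 and 6.52 and a log2 ratio of 1.41 ± 0.22 (adjusted p of 2.91e-05). All 4 libraries were above the flank for these 3 genes.

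The other 3 H1 genes stood out less from the flank. Hist1h1a had windows of 5.20, 7.88, 6.03 and 5.90 and a log2 ratio of 0.38 ± 0.18 (adjusted p of 0.108), and 2.78 ± 0.33 (adjusted p of 9.34e-05) against the limited flank. Hist1h1d, annotated over 7425 bp, had 1.82, 2.5, 2.08 and 2.01 and a log2 ratio of -0.50 ± 0.18 (adjusted p of 0.0303). Hist1h1t, the linker histone made in the testis, had 1.00, 2.23, 1.17 and 1.62, lowest of the H1 genes in each library, and a log2 ratio of -0.53 ± 0.19 (adjusted p of 0.0301). Against the limited flank the ratios of Hist1h1d and Hist1h1t were 0.59 ± 0.22 (adjusted p of 0.0457) and 0.88 ± 0.24 (adjusted p of 0.0123). Neither call below the 5-kb flank held under all settings: with a pseudocount of 0.1 the adjusted p was 0.0664 and 0.0742, and the calls were also lost without the filter, Hist1h1d without uninjured F (-0.34), 1 d.p.i. M (-0.45) or 1 d.p.i. F (-0.55), and Hist1h1t with a flank of 10 kb (-0.33) and without uninjured M (-0.30) or 1 d.p.i. F (-0.39).

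Averaged over the 67 genes and 4 libraries, coverage was highest in the 100 bp before the start, at 21.2 times the library mean, and the same bin was highest over all coding genes, at 12.2. By library, the histone maximum lay in that bin in uninjured M (18) and uninjured F (30.7), in the 100 bp after the start in 1 d.p.i. M (22.8) and 100 to 200 bp after it in 1 d.p.i. F (16.4), while all coding genes peaked in the 100 bp before the start in each. From 1000 to 3000 bp after the start the histone mean had dropped to 3.4. H2A genes peaked at 26.7 in the 100 bp before the start and H2B genes at 23.8 between 100 and 200 bp before it, the space between divergent start sites. H4 and H1 genes peaked in the 100 bp after the start, at 20.6 and 11, and H3 genes at 21.1 between 100 and 200 bp before it. Side maxima were present as well. H3 genes had a level of up to 18.6 at 800 to 1500 bp before the start, where 7 of 12 had the start site of another histone gene, and H2A genes up to 15.5 at the same distance after the start, where 9 of 18 had one. H1 genes reached 10.4 after the start, where 1 of 6 had another histone start site, H4 genes 9.47 before it (3 of 13) and H2B genes 7.69 before it (4 of 18).

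**Figure D3:**
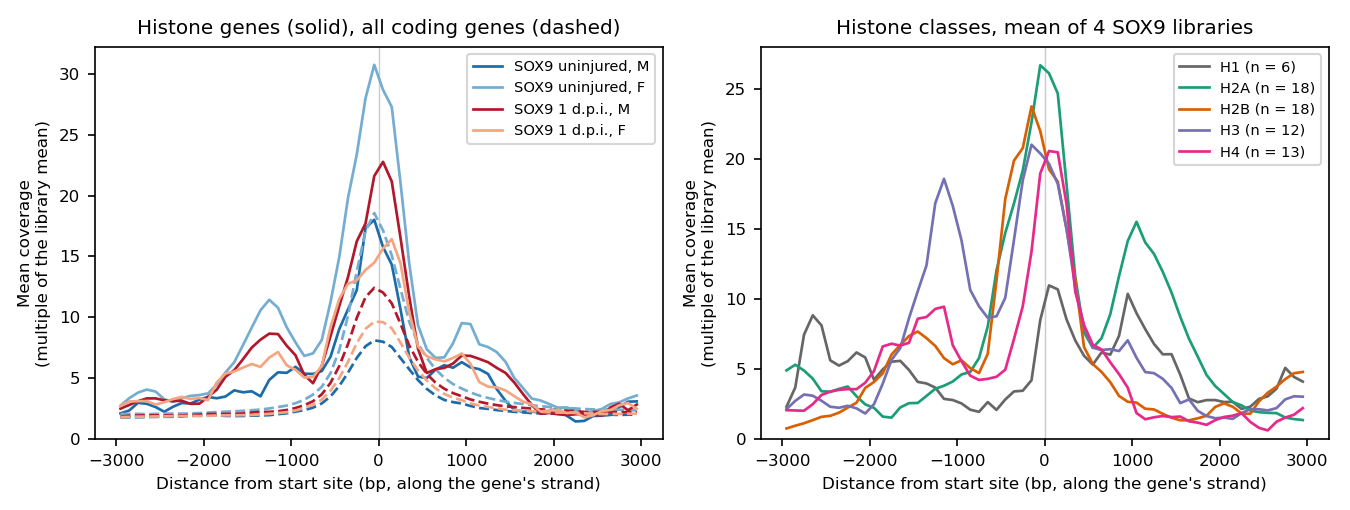
Mean coverage in 100-bp bins (y axis, multiple of the library mean) by distance from the start site along the gene's strand (x axis, bp), for the 67 histone genes (solid) and all 21938 coding genes (dashed) in each SOX9 library, and for the 5 histone classes as the mean of the 4 libraries. Histone genes peak above all coding genes in each library, and H3, H2A and H1 genes have side maxima.

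Windows overlapped within the clusters and many genes have near-identical copies, so the 67 values are not independent. In all, 55 of the 67 windows shared bases with another, and the 67 formed 34 separate stretches of up to 5 genes. Of the 50-base sequences in a window, a median of 84.5% occurred once in the genome, and 53.0% within gene bodies. Hist1h2bq and Hist1h2br had none that occurred once, Hist1h2ap and Hist1h2ao had 1.69% and 2.06%, and 62.8% of those of Hist2h2aa1 were shared with Hist2h2aa2. Coverage was nonetheless present there, and how the aligner divided fragments between such copies was not tested. Over the 162307 bases of the merged windows that begin a sequence found once, the SOX9 levels were 3.92, 5.82, 4.43 and 4.09 (uninjured M and F, then 1 d.p.i. M and F), and over the other bases 9.52, 17.0, 13.6 and 11. These sets of bases also differ in position, since repeated ones lie more often in gene bodies, and this was not separated.

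No histone gene passed the injury test. Window levels at 1 d.p.i. and in uninjured cords were compared in limma on log2(level + 0.5), which understates changes of low genes, and 0 of 65 histone genes were higher and 0 lower at an adjusted p under 0.05 (0% of all 18768 genes tested in either direction). At an unadjusted p under 0.05, 0 were higher (1.92% of all genes) and 1 was lower (1.63%). The median log2 change over the 65 was -0.17, against -0.03 over all genes tested, and single values ran from -1.23 to 0.94. By sign, 18 had a positive and 47 a negative value, and of all genes tested 8380 had a positive and 10388 a negative value. Class medians were -0.07 for H1, -0.18 for H2A, -0.17 for H2B, -0.23 for H3 and -0.11 for H4.

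The 3 genes with the smallest p for lower coverage were neighbours in Hist1. Hist1h4k (chr13:21750194-21750505), an H4 gene, had 5.18 and 6.02 in uninjured M and F and 2.18 and 2.0 at 1 d.p.i. (log2 change of -1.23 ± 0.27, limma p of 0.00139, adjusted p of 0.705). With the libraries thinned to the smallest SOX9 library, the log2 change of Hist1h4k was -0.92. Hist1h2ak had 6.34 and 9.45 against 5.14 and 3.51 (log2 change of -0.79 ± 0.38, limma p of 0.0660), and Hist1h2bn, which shares its promoter, 6.31 and 9.23 against 5.26 and 3.42 (-0.78 ± 0.38, limma p of 0.0726). Leaving out a library moved Hist1h2ak from -0.52 (without uninjured F) to -1.06 (without uninjured M). It moved Hist1h2bn from -0.50 (without 1 d.p.i. F) to -1.05 (without 1 d.p.i. M). On the higher side, the H4 gene Hist1h4i had 2.1 and 5.47 in uninjured M and F and 6.73 and 6.74 at 1 d.p.i. (0.87 ± 0.42, p of 0.0686). The H3 gene Hist1h3h had 0.911 and 5.83 against 5.69 and 4.81, with groups that overlapped (0.94 ± 0.58, p of 0.142), and Hist1h1e 4.08 and 9.10 against 8.53 and 9.92 (0.55 ± 0.46, p of 0.261), which also overlapped. Values on the higher side rested on the low uninjured M library: without it they were 0.28 for Hist1h4i, -0.14 for Hist1h3h and 0.01 for Hist1h1e, and without uninjured F 1.46, 2.02 and 1.08. With all 4 libraries the adjusted p of each was above 0.7 in limma, and without uninjured F it was 0.284 for Hist1h4i, 0.228 for Hist1h3h and 0.395 for Hist1h1e.

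Taken as 1 stretch, all 67 windows had a mean level of 6.43 ± 2.08 (SD, n = 2) in uninjured and 5.75 ± 0.537 (SD, n = 2) in 1 d.p.i. SOX9 libraries, a ratio of 0.894, which is within the spread of the uninjured pair. An exact permutation test of 2 libraries against 2 cannot give a p below 0.333, and none was run. In the controls the means were 6.14 ± 1.27 and 6.35 ± 1.37 (SD, n = 2), a ratio of 1.03. The uninjured F library, the deepest, was the highest of the 4 for 53 of the 67 genes, and without it the median log2 change was 0.18, against -0.59 without uninjured M.

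Genes that act on histone genes or their products were measured the same way, from lists of textbook members. Of 26 listed genes of histone gene control, 25 were found by symbol, with a median start-site level of 6.35, 16, 8.69 and 6.29 (uninjured M and F, then 1 d.p.i. M and F). Within it, Nfya, which encodes a subunit of the factor that binds the CCAAT box, had start-site levels of 26.7, 89.7, 54.1 and 38.3, while Nfyb and Nfyc, the other subunits, had 6.22, 20.6, 8.69 and 6.29 and 2.82, 0.797, 1.62 and 1.7. Npat had 5.31, 25.8, 17.1 and 6.21. Slbp, the stem-loop binding protein gene, had 13.6, 29.9, 23.0 and 17.9, and its whole window lay below its 5-kb flank (log2 ratio of -1.79). The direction turned against the limited flank (0.90, limma adjusted p of 0.0218) and around the start site (1.04, limma adjusted p of 0.00384). By whole windows, 7 of the 25 genes of histone gene control were above their 5-kb flanks (27.9% of all genes tested were) and 5 below (10.8%). Against the limited flank 9 of 21 were above and 1 below (29.9% and 4.90% of all genes tested). Around the start site 21 of 23 were above and 0 below (74.9% and 1.32% of all genes tested). Of 15 histone chaperone genes 4 were above the 5-kb flank and 4 below. Against the limited flank 1 of 10 chaperone genes was above and 0 below, and around the start site 13 of 15 were above and 0 below. Of 11 genes of replacement histones, which are made outside S phase, 9 were above the 5-kb flank and 0 below. Against the limited flank 8 of 10 of them were above and 0 below, and around the start site 8 of 11 were above and 1 below. H2afz (window levels of 7.19, 15.4, 8.22 and 6.25) and H2afx (8.57, 17.7, 13.6 and 14.9) had the highest log2 ratios to the 5-kb flank of the last list, 2.27 and 1.98. Of 89 genes tested with a cytosolic ribosomal protein symbol, a list chosen by name that also holds retrogene copies and Rps19bp1, 60 were above their flanks, with a median log2 ratio of 0.75. Among the 12268 tested genes no longer than the longest histone gene (Hist1h2be, 37455 bp), 4214 were above and the median was 0.27. The median histone gene body was 539 bp, so this list is not matched to the histone genes in length. Against the limited flank 56 of 74 ribosomal and 3954 of 10403 short genes were above, and around the start site 72 of 88 and 6461 of 9194. In none of these lists did a gene pass the injury test in limma, and at an unadjusted p under 0.05 the ribosomal list had 2 higher, both retrogene copies (Rpl10-ps3 at 2.39 and Rpl9-ps6 at 1.57), and 1 lower (Rps12 at -0.94), and the 3 histone-related lists had none.

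Markers of the cell types in the cord gave a scale for these levels. Sox10, an oligodendrocyte gene, had window levels of 13.9, 20.2, 13 and 10.6, and the median over 5 oligodendrocyte genes was above that over 8 astrocyte genes in each SOX9 library, although SOX9 marks astrocytes (7.58 against 2.42 in 1 d.p.i. M). The histone median lay above the astrocyte, neuron, microglia, endothelial and neutrophil medians in each library by whole windows (4 neuron genes: 2.5, 3.43, 2.52 and 2.16), and below the oligodendrocyte median in uninjured M (5.87 against 6.19) and 1 d.p.i. M (7.00 against 7.58). Within 1 kb of the start site the neuron median was above the histone median in uninjured F (12.6 against 12.3) and 1 d.p.i. M (9.19 against 8.54), and the oligodendrocyte median in uninjured F (13.5), 1 d.p.i. M (12.2) and 1 d.p.i. F (8.03 against 7.87). Of the marker genes, 4 of 8 astrocyte genes, 0 of 5 oligodendrocyte, 0 of 4 neuron, 1 of 4 microglia, 0 of 4 endothelial and 1 of 2 neutrophil genes tested were above their flanks, beside 27.9% of all genes tested. Of 4 neutrophil genes, 2 had too few fragments to be tested, S100a8 and S100a9, and the median window level of the list was at most 0.709. The part of any cell type in the histone levels was not tested.

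Promoter sequence did not enter the choice of genes. RefSeq promoters (GRCm38.p6) were matched for 62 of the 67 genes, and the 250 bases before the start were searched on both strands. CCAAT was present in 51 of 62 histone promoters (82.3%) and in 33.8% of 32851 promoters of all genes, and by class in 18 of 18 H2A, 16 of 16 H2B, 6 of 6 H1, 8 of 10 H3 and 3 of 12 H4 promoters. The octamer ATGCAAAT, bound by POU2F1 (OCT1), was in 13 histone promoters (21%, against 1.60% of all), 7 of H2A and 6 of H2B genes and none of the other classes. TATAAA was in 29 (46.8% against 12.4%), by class in 4 of 6 H1, 7 of 18 H2A, 8 of 16 H2B, 4 of 10 H3 and 6 of 12 H4 promoters. Differences between classes were not tested. The SOX core AACAAT was in 5 histone promoters (8.06%) and in 9.42% of all, and the E-box CACGTG in 0 of 62 (6.02% of all). Median start-site level was 6.81 for the 5 with the SOX core and 9.57 for those without it. A match is a description of the sequence and shows no binding.

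The promoters shown are examples of these layouts. Each is the gene with the highest ratio to the 5-kb flank in its class, for H1, H2A, H2B and H4. Sequences run 5′ to 3′ on the gene's strand up to the start site, with CCAAT and TATAAA on either strand in capitals (ATTGG and TTTATA are the reverse complements). The Hist1h1e promoter (chr13:23622559-23622808, minus strand) has 1 CCAAT box, 52 bases before the start, and a TATA box 27 bases before it. That of Hist1h2ap (chr13:21833508-21833725, minus strand) has 3 CCAAT boxes and that of Hist1h2bp (chr13:21787238-21787460, plus strand) 4, while that of Hist1h4h (chr13:23530794-23531043, plus strand) has none of the 5 motifs.
Hist1h1e: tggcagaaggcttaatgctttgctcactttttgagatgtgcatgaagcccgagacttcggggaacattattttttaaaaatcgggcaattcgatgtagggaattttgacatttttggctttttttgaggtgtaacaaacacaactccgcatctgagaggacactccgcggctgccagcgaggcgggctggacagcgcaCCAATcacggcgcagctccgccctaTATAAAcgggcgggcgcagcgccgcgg
Hist1h2ap: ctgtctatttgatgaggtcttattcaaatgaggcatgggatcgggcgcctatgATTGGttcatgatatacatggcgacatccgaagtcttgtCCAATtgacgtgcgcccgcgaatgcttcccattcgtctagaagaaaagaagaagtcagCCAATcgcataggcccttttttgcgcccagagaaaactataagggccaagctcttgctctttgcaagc
Hist1h2bp: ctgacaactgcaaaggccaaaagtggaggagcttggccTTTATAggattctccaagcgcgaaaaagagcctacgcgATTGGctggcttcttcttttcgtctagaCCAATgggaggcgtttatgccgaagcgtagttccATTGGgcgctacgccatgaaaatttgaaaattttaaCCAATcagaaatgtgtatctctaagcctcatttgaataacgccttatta
Hist1h4h: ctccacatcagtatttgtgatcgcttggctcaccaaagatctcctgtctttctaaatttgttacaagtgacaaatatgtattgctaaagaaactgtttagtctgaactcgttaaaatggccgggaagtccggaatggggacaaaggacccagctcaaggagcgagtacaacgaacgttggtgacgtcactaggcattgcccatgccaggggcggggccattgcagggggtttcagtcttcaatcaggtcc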

How the data were processed

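Coverage tracks were used as the authors deposited them: per their methods and processing notes, reads were demultiplexed with deML, aligned to mm10 with Bowtie2 2.5.4 and passed through Picard 3.4.0, with peaks from SEACR 1.3, which were not used here. The step that wrote the coverage signal is not named. Each track was divided by its mean over the genome. Fragments were counted where coverage steps up. Genes came from GENCODE M21. The window was the gene body with 1 kb on each side and the flank the next 5 kb on each side. Values were log2 of the level plus 0.5, fitted in limma 3.58.1 (R 4.3.3, mean-variance trend) over all protein-coding genes with at least 20 fragment starts in the 4 SOX9 libraries, with Benjamini-Hochberg adjustment and a threshold of 0.05. Coverage is not a count, so no count test was used. Other steps used Python 3.11.15. The procedure was tested on simulated data.

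The histone genes, the lists of histone gene control, chaperones, replacement histones, ribosomal proteins and short coding genes, and the cell type markers were chosen with earlier results of these data known. Genes named singly were the 3 highest and 3 lowest by ratio to the flank, the highest of each class, all H1 genes, the 3 smallest p in each direction at 1 d.p.i., and the Hist3 and Hist4 genes. Hist2h2aa1, Hist2h2aa2, Hist2h3c1, Hist2h3c2, Hist1h2be, Hist1h2an, Hist1h2ac, Hist1h2bc, Hist1h2bf, Hist1h2bg, Hist1h2ae, Hist1h4a, Hist1h2bq and Hist1h2br were chosen after their values were seen, as were Nfya, Nfyb, Nfyc, Npat, Slbp, H2afz, H2afx, Sox10, S100a8, S100a9, Rpl10-ps3, Rpl9-ps6 and Rps12 within the lists. Alternatives covered window and flank sizes, the pseudocount, the filter, scaling, thinning to equal fragment numbers, the replicate block and leaving out each library.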

Additional observations from a re-analysis of the deposited data

Results flagged for a closer look

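Coverage over the merged windows of all 67 histone genes moved in opposite directions in male and female cords. The level at 1 d.p.i. over the level in the uninjured cord was 1.24 in males, from 4.96 to 6.13, and 0.680 in females, from 7.90 to 5.37. Each sex had 1 library per condition, so this difference was not tested. Of the 65 histone genes tested, 47 were higher at 1 d.p.i. in males and 8 higher in females, and 41 were higher in males and lower in females. Of all 18768 genes tested, 11442 were higher in males and 6708 higher in females. Among the genes tested, the median log2 change was 0.24 in males and -0.59 in females for histone genes, and 0.09 and -0.15 for all genes, and 8207 of all genes tested were higher in males and lower in females. Of the histone classes, H4 had negative medians in both sexes (-0.05 and -0.36). Of the other lists, these had the same signs as all histone genes: ribosomal proteins 0.29 and -0.39 (54 of 89 genes higher in males and lower in females), histone gene control 0.34 and -0.36 (18 of 25) and oligodendrocyte markers 0.24 and -0.51 (3 of 5), as did chaperones, replacement histones, short coding genes and neuron markers. The astrocyte (0.26 and 0.05), microglia (0.27 and 0.04), endothelial (-0.21 and 0.33) and neutrophil markers (-0.36 and 0.14) did not. Uninjured F held 7216730 fragments against 1891276 in uninjured M. With each SOX9 library thinned to 1891276 fragments, which equalizes fragments and not mean coverage, and which was chosen for the sexes after seeing the data, the ratios were 1.24 in males and 0.661 in females.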

How the results depend on the processing

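At least 46 histone genes were above their flanks under each alternative (46 to 65, with 20.3% to 76.2% of all genes tested, and 46 to 47 in the leave-one-out fits, with 20.3% to 24.1%, where a lone library is assumed to vary like the others). In limma, 0 were higher and 0 lower at 1 d.p.i. under each, also with sex as a replicate block (0 and 0, and 1 and 1 at an unadjusted p under 0.05). At an unadjusted p under 0.05, 14 of 65 were lower without uninjured M (6.58% of all genes) and 7 of 65 higher without uninjured F (6.39%). Over all 18768 genes the calls did change, from 0 higher and 0 lower to 55 and 36 with the replicate block, 24 and 28 with TMM scaling, 40 and 32 without 1 d.p.i. M, and 35 and 42 without 1 d.p.i. F. M and F mark sex and do not pair animals (r = -0.22 between deviations). The number of genes below their flanks was 1 with 1 kb around the start site, 0 with the flank without other genes' windows, 0 with both together, 2 with a pseudocount of 0.1, and 2 to 3 in the leave-one-out fits. The share of all genes tested that lay below their flanks fell as well, from 10.8% in the main fit. It was 1.32% around the start site (1 of 63 histone genes) and 4.90% with the flank without other genes' windows. With both together it was 0.799%, and with a pseudocount of 0.1 it was 9.16%. The median log2 ratio to the flank was 1.47 with a window of 0.5 kb around the body and 1.68 around the start site (1.43 over all genes). It was 2.1 with the flank without other genes' windows, 2.42 with both together (1.47 over all genes) and 1.23 to 1.39 in the leave-one-out fits. Over window bases whose 50-base sequence occurs once it was 0.93, and the 5-kb flank there kept all its bases. With the flank without other genes' windows, the ratios of Hist1h3d, Hist1h1d, Hist1h1t and Hist4h4 turned positive, at 1.39, 0.59, 0.88 and 1.47. With that flank and the start site together they were 1.55 for Hist1h3d and 2.01 for Hist4h4. With the start site alone Hist4h4 had 0.93, and Hist1h3d stayed below its flank at -0.99 (limma adjusted p of 0.0134). Taking both together and taking only bases found once were chosen after seeing the data. The median log2 change ran from -0.59 without uninjured M to 0.18 without uninjured F, and the summed ratio from 0.728 to 1.16 in the leave-one-out values. Thinned to the smallest SOX9 library they were -0.22 and 0.881. The cause was not tested.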

Other observations

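The order of the 67 window levels was similar between libraries: the Spearman correlation over the 67 genes, which overlap and share gene copies, ran from 0.759 (uninjured M and 1 d.p.i. F) to 0.911 (uninjured F and 1 d.p.i. M), and over all genes from 0.913 to 0.959. Fragments over the histone genes had a mean length of 240, 228, 254 and 261 bp in uninjured M, uninjured F, 1 d.p.i. M and 1 d.p.i. F. Of the control fragments over these genes that overlapped no other control fragment, 3 of 13 (uninjured M), 11 of 17 (uninjured F), 7 of 21 (1 d.p.i. M) and 1 of 5 (1 d.p.i. F) matched a fragment of their own sample's SOX9 library at both ends. For 3 of the 4 controls the SOX9 library of another sample matched more: 6 for uninjured M (with uninjured F), 8 for 1 d.p.i. M (with 1 d.p.i. F) and 4 for 1 d.p.i. F (with uninjured F).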
